A study of Mus musculus with 3 samples.

Results

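The epidermal differentiation complex is a run of genes on mouse chromosome 3 whose products build the outer layer of the skin. Its members were taken by name from the gene list of a single-cell RNA series: every symbol of the Sprr, numbered Lce and numbered S100a families, with Lor, Flg, Flg2, Ivl, Hrnr, Rptn, Crnn, Tchh and Tchhl1. This gave 58 of 31053 listed features. They were followed through 3 libraries of mouse dorsal skin, 1 per group, each made from cells released with collagenase I and caught in droplets with the 10x 3' v3.1 chemistry. The young control was 2.5 months old, carried Yap1 fl/fl and Wwtr1 fl/fl alleles without a Cre, and was given tamoxifen by mouth at 0.11 mg per g on 2 days a week for 4 weeks. The knockout (labelled YTcKO) had the same age, floxed alleles and tamoxifen, plus R26-CAG-CreER, a recombinase that tamoxifen switches on and whose CAG promoter is active in most cell types, so deletion was not limited to keratinocytes. Wild-type mice aged 24 months, without tamoxifen, gave the old control. Age, alleles and tamoxifen therefore cannot be told apart in a comparison of old with young. The labels do not give the number of animals behind a library. Yap1 and Wwtr1 encode YAP and TAZ, co-activators regulated by the Hippo pathway, and the series title and labels place the study's question in fibroblasts, so keratinocytes were not its stated subject.

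Keratinocytes divide in the basal layer, leave it, and mature through spinous and granular layers into dead cornified cells. In the granular layer, transglutaminases join loricrin (Lor), involucrin (Ivl), the small proline-rich proteins (Sprr) and the late cornified envelope proteins (Lce) into a tough shell beneath the membrane. Filaggrin (Flg) and its relatives of the S100-fused type (Flg2, Hrnr, Rptn, Crnn, Tchh, Tchhl1) are large proteins with an S100-like calcium-binding start that bundle keratin or line the hair follicle. The S100a genes flank this block and encode small calcium-binding proteins, many of them made well beyond the epidermis.

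On the GRCm38 annotation of GENCODE M21 all 58 members lay on chromosome 3 between 90511034 and 93564643, a span of 3054 kb, with 35 on the plus and 23 on the minus strand. The 45 genes that are not S100a genes formed 1 unbroken block from 92080271 to 93471980. Of the S100a genes, 11 lay before that block and 2 (S100a11 and S100a10) after it. The 250 bases before the gene start are shown for 5 members on which the results below turn: Lor, Sprr1a, Ivl, Lce1m and Flg2. They are written 5' to 3' on the gene's own strand from the RefSeq table for GRCm38.p6. Capitals mark TGANTCA, a pattern that includes TGAGTCA and TGACTCA, the letters bound by AP-1 factors such as Fos and Jun. The Flg2 match, TGAATCA, is neither of these. The windows are chr3:92083143-92083392 (minus strand, Lor), chr3:92485882-92486131 (minus strand, Sprr1a), chr3:92573736-92573985 (minus strand, Ivl), chr3:93019062-93019311 (minus strand, Lce1m) and chr3:93197023-93197272 (plus strand, Flg2).
Lor: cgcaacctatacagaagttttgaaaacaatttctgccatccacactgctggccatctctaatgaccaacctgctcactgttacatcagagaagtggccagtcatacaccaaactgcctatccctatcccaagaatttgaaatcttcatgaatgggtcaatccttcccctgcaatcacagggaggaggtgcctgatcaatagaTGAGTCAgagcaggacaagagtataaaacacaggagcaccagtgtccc
Sprr1a: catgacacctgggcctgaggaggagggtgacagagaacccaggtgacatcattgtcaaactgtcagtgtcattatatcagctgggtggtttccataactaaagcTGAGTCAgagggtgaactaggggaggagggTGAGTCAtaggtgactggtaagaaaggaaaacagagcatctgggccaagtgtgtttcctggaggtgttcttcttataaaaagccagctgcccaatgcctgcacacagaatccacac
Ivl: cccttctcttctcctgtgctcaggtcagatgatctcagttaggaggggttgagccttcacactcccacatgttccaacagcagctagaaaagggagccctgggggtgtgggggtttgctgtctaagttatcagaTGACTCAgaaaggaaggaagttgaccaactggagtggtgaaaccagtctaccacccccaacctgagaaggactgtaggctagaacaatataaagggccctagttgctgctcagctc
Lce1m: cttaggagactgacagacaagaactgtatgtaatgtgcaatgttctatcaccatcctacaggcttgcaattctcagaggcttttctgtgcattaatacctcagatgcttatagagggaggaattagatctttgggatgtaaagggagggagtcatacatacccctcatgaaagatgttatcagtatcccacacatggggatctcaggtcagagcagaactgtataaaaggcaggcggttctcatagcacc
Flg2: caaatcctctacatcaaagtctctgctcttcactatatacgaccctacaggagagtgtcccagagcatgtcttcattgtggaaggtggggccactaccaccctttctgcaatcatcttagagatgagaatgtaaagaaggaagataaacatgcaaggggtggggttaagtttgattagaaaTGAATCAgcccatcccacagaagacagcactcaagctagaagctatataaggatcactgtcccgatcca
The capital letters started 48 bases before the Lor start, 146 and 116 before the Sprr1a start, 116 before the Ivl start and 69 before the Flg2 start, and Lce1m had none. TGANTCA reads the same on both strands. Of the members, 53 matched the RefSeq table, with 57 windows, and 18 of these windows held it (31.6%), against 6.75% of 32851 windows of all genes. By family the windows holding it were: Lor and Ivl 2 of 2, Sprr1 2 of 2, Sprr2 7 of 10, the S100-fused type 5 of 7, S100a 2 of 14, Lce1 0 of 13, Lce3 and Lce6 0 of 7, and Sprr3 and Sprr4 0 of 2. TATAAA, searched on the gene's strand and its reverse, was in 40.4% of member windows and 12.4% of all windows. GCCNNNGGC, the letters of AP-2 factors, was in 7.02% and 13.7%. A match describes letters only, and no binding was measured in these libraries.

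Most of the complex was barely read. Over all deposited barcodes 52 of 58 members had a molecule count (UMI) in at least 1 library, and 26 had 3 or more in each of the 3 libraries. The 13 S100a genes held 427435 of 440029 member UMIs in the young library, 284733 of 287779 in the knockout and 286944 of 304451 in the old one. Sprr3, Lce3a, Lce3b, Lce3d, Lce3e and Lce3f had 0 UMIs in every library. The 14 Lce1 genes together gave 899, 6 and 579 UMIs (young control, knockout, old control), and the 11 Sprr2 genes 316, 53 and 163. Lor gave 1662, 39 and 522 UMIs, Sprr1a 7684, 2382 and 14826, and Ivl 500, 170 and 446. By raw UMIs, Lor and Ivl were read most in the young control and Sprr1a in the old control. Sprr1b, at 106, 146 and 101 UMIs, was read most in the knockout. The libraries differed in size, with 95274423, 57767761 and 52579262 UMIs in all. Scaled to the UMIs of keratinocyte-like cells (class and CPM scale defined below), Ivl was highest in the old control, at 10.3, 10.7 and 14.4 CPM. On that scale Lor, Sprr1a and Sprr1b each stayed highest in the library named here. A 3' count near the end of a transcript cannot always separate relatives. In the last 500 bases, Sprr2a1 and Sprr2a2 shared 100% of their 50-base words with other genes and Sprr2a3 shared 63.4%. The Lce3a to Lce3f genes shared 13.7% to 49.3%, S100a4 shared 47.4% (with Gm42674, whose exons it overlaps) and S100a11 42.1%, so these values are uncertain. Lor, Sprr1a, Ivl, Lce1m and Flg2 shared none.

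**Figure D1:**
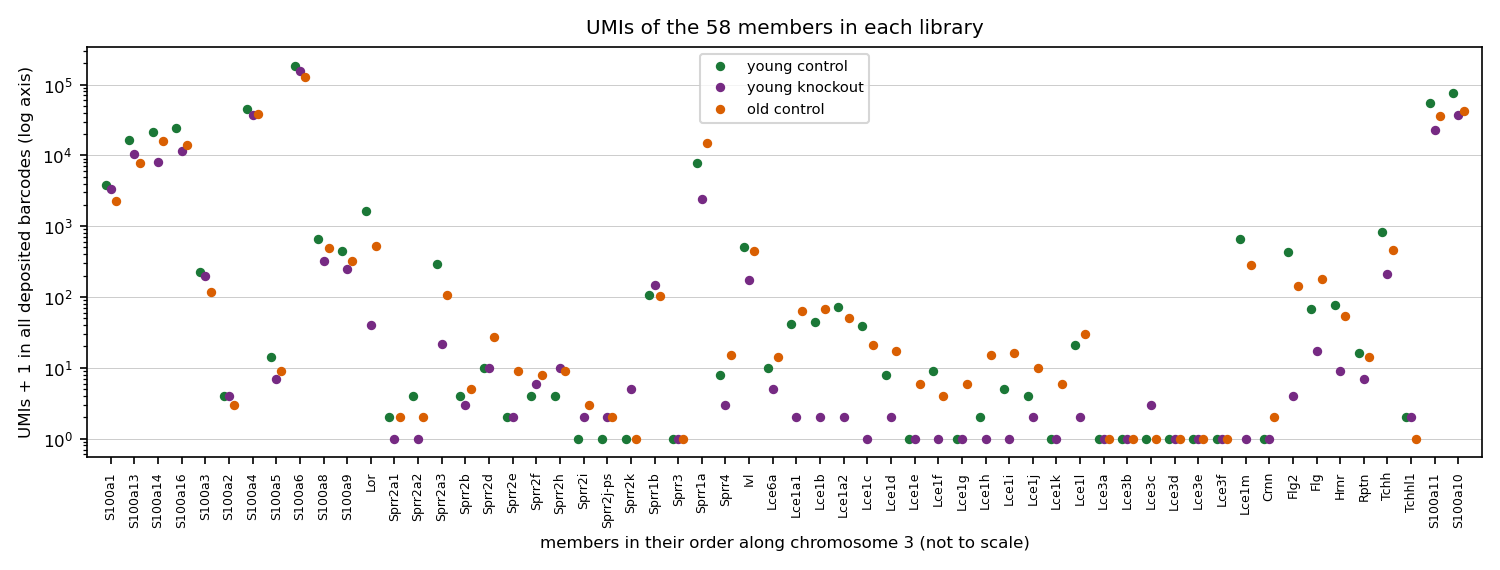
UMIs plus 1 (log axis) of the 58 members in their order along chromosome 3, over all deposited barcodes, 1 series of points per library. The highest points are S100a genes at both ends, but S100a2 and S100a5 lie near the floor. Most Lce and Sprr2 genes lie near it too, with Lce1m and Sprr2a3 above them in the controls. Sprr1a (7684, 2382 and 14826 UMIs) stands above the rest of the block between the ends.

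The libraries held 15290, 25348 and 22108 barcodes in the order young control, knockout, old control, and 10784, 8655 and 11108 cells were kept after filtering. Kept cells had a median of 4957, 2083 and 1783 UMIs, and 12.3%, 62.4% and 19.4% of barcodes were over the mitochondrial limit. Clusters were built without the 58 members and named from fixed markers with the ending "-like", and 5.61%, 26.6% and 43.4% of cells stayed unnamed. Keratinocyte-like cells numbered 2846, 126 and 2107, with Krt14 at 3847, 4861 and 4221 CPM, the gene's share of the summed UMIs of the class on the usual CPM scale. Clustered on its own, each library gave 2945, 924 and 3013, so the knockout depends most on the clustering. Of the 126 knockout cells 58 were cycling-like, while the largest young cluster was basal-like (968 cells) and the largest old one upper hair follicle-like (540 cells). Wwtr1 in keratinocyte-like cells was 114, 0.764 and 107 CPM and Yap1 109, 19.5 and 77.3 CPM, low in the knockout for both, and over whole libraries Wwtr1 was 126, 11.7 and 113 CPM. Barcodes shared by 2 libraries numbered 39 to 50 among kept cells.

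With 1 library per group no difference has a replicate check, and bracketed ranges are 95% intervals for counting error only. A member was called higher or lower when its mean over the 3 libraries was at least 20 CPM, its ratio at least 2 or at most 0.5, and the nearer end of the interval past 1.5-fold. In keratinocyte-like cells 9 of the 58 members reached 20 CPM: Sprr1a and 8 S100a genes. All members that did not are described by their values, with any call on them named as made without the level filter.

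The late envelope genes were found in very few cells. Barcodes with at least 5 Lor UMIs numbered 12 in the young library, 0 in the knockout and 2 in the old one. For Flg2 the numbers were 10, 0 and 1, and for Lce1m 4, 0 and 3. In all 3 genes the young control was highest and the knockout had no such barcode. Lor, Flg2 and Lce1m often came together: of 9 kept young cells with at least 5 Lor UMIs, 5 also had 5 Flg2 UMIs and 3 had 5 Lce1m UMIs. Ivl, laid down early in the envelope, reached 5 UMIs in 17, 2 and 8 barcodes. Of these Ivl cells, 14 of 17 in the young control and 8 of 8 in the old control also had 5 Sprr1a UMIs. Sprr1a reached that count in 221, 80 and 444 barcodes, with the old control highest. Flg did so in 2, 0 and 2 barcodes, and 1 old barcode alone held 97 of the library's 179 Flg UMIs. Sprr2a3 did so in 13, 0 and 3.

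**Figure D2:**
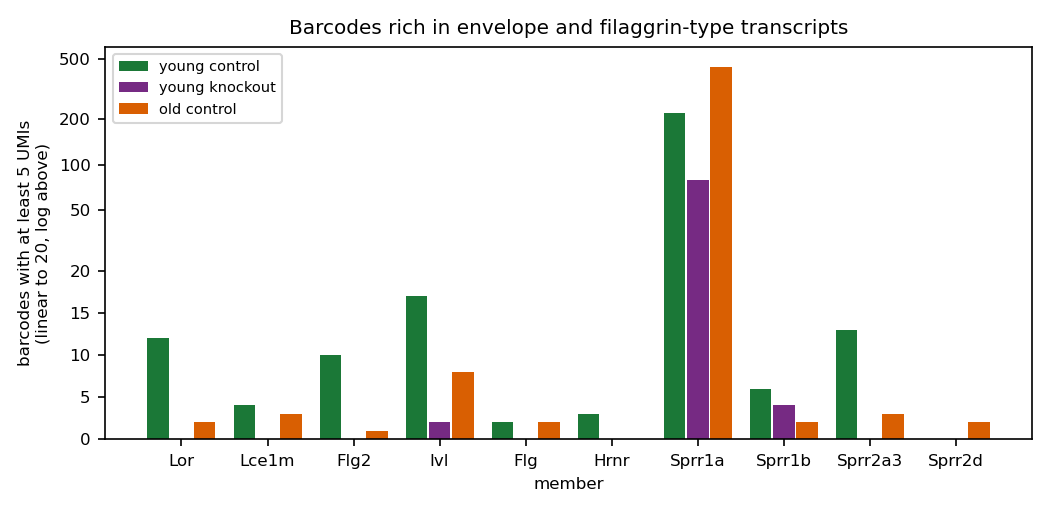
Number of deposited barcodes with at least 5 UMIs of each late gene (linear axis to 20, log above), bars by library. Lor, Flg2 and Lce1m bars are tallest in the young control (12, 10 and 4) and absent in the knockout, while Sprr1a is tallest in the old control (444).

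Free RNA in the suspension may set a floor for these genes. In young keratinocyte-like cells as a whole Lor was 20.6 CPM, and in young cells named T, NK or innate lymphoid-like, which do not make loricrin, it was 24.7 CPM [19.9 to 30.4]. At least 1 Lor UMI was seen in 10.4% of the keratinocyte-like cells (median 8182 UMIs) and 7.32% of the lymphoid-like cells (median 2883 UMIs). After thinning each cell to 1500 UMIs the shares were 2.25% and 3.91%. Of the 670 young keratinocyte-like Lor UMIs, 362 lay in the 52 cells of sub-cluster 15, described next, at 365 CPM. Without those cells, a choice made after seeing the data, Lor was 9.74 CPM [8.69 to 10.9] in the other 2794 young cells, below the lymphoid-like level. Barcodes below the gene or UMI minimum, taken as free RNA, held Lor at 72.2, 0 and 19.5 CPM in young, knockout and old libraries. They numbered 1975, 871 and 7873, with 1773460, 949646 and 6608636 UMIs. Cells of low depth among them could not be told from free RNA, here or where free RNA is given below. For Sprr1a the free RNA was 104, 11.6 and 258 CPM. Sprr1a UMIs were nevertheless in 18.5% of young and 39.4% of old keratinocyte-like cells (7.62% and 25.6% after thinning), against 6.57% and 10.7% of lymphoid-like cells (3.82% and 5.09% after thinning; medians 2883 and 3600 UMIs). The old keratinocyte-like cells had a median of 3616 UMIs.

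Sub-clusters of the keratinocyte-like cells placed the late genes. Sub-clusters 15 and 11 were singled out after the values of the members were seen. Sub-cluster 15 was suprabasal-like, led by Tesc, Retnla, Hal, Krt77 and Krtdap, and held 52 young, 3 knockout and 45 old cells with median UMIs of 15498, 28071 and 15451. Lor in it was 365 CPM in the young control and 7.37 CPM in the old control, a ratio of 0.0202 [0.00737 to 0.0444]. Lce1m was 149 CPM in the young cells and 0 in the old ones, a ratio of at most 0.0247 with the floor of 3 UMIs in the class sum. Flg2 was 148 and 3.68 CPM, a ratio of 0.0249 [0.00507 to 0.0742]. These 3 genes were high in the young cells and near 0 in the old ones. Single cells carried much of this: the top young cell held 29.3% of the Lor, 64.9% of the Lce1m and 49.0% of the Flg2 UMIs. The old Lor value (7.37 CPM [2.70 to 16.0]) overlapped that of old lymphoid-like cells (5.18 CPM [2.24 to 10.2]). Without the top cell of each library Lor was 258 and 5.30 CPM, Lce1m 52.4 and 0 CPM, and Flg2 78.1 and 1.24 CPM. Lor UMIs were seen in 19 of 52 young cells and 5 of 45 old cells. Sprr1a, which encodes a cross-linking envelope protein, went the other way: 221 CPM in the young and 677 CPM in the old cells, a ratio of 3.07 [2.62 to 3.60]. Ivl was 88.6 and 44.2 CPM.

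Of 12 members at 20 CPM or more in sub-cluster 15, 1 was called higher in the old control (Sprr1a) and 5 lower (Lor, Lce1m, Flg2, S100a6 and S100a13), where 0.533% and 2.11% of all genes at that level were. Lor, Lce1m and Flg2 reached 20 CPM through the young cells alone, and the sub-cluster was singled out with their values seen, so nothing is read from this count. S100a6 was 245 and 89.6 CPM, and S100a13 45.3 and 13.5 CPM. The rest of the programme was measured beside these genes. The 31 cornification partners (the enzymes, proteases, junction proteins and keratins of cornification, of which 16 were also cell type markers) summed to 54305 CPM in the young and 53524 CPM in the old cells. Krt10 was 20400 and 18234 CPM, and the 12 granular-layer markers together 5392 and 4692 CPM. Of the 27 partners at 20 CPM or more, 0 were called higher and 4 lower in the old cells. These were Klk7 (251 and 25.8 CPM) and Klk5 (163 and 70.0 CPM), proteases of shedding, Cdsn (150 and 46.7 CPM), the corneodesmosome adhesion protein, and Cnfn (68.5 and 23.3 CPM), a further envelope component. Of 8 other genes of the complex 3 reached 20 CPM, and all 3 were lower: Crct1 (154 and 11.1 CPM), Kprp (52.4 and 13.5 CPM) and Pglyrp4 (63.5 and 18.4 CPM). Of 25 regulators of late differentiation 1 was called higher and 0 lower. Fibroblast markers summed to 916 CPM in the young and 46.7 CPM in the old cells of this sub-cluster, and their part in the result was not tested. The 3 knockout cells had 0 UMIs of Lor, Lce1m, Flg2 and Ivl and 13 of Sprr1a. With 3 cells the share holding a Lor UMI could be up to 70.8%. The young share was 36.5%, so no difference in this share was detectable. The summed UMIs of the 3 cells allowed Lor up to 34.2 CPM, below the young 365 CPM (258 CPM without the top cell). That bound covers counting error only, not the spread between cells.

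Sub-cluster 11 held upper hair follicle and granular markers together, led by 2310046K23Rik, Cst6, Krt79 and Klk7, with 122 young, 4 knockout and 70 old cells. Sprr1a in it was 1642, 1691 and 6958 CPM (the knockout value from its 4 cells), highest in the old control, with an old over young ratio of 4.24 [4.04 to 4.44]. In the same cells 8 fibroblast markers summed to 1219 and 100.9 CPM and 7 upper hair follicle markers to 12193 and 27859 CPM in young and old, and their part in the ratio was not tested. Ivl was 68.2 and 127 CPM in young and old cells, and in the knockout its 21 UMIs came from 1 of the 4 cells. Lor was found in 12 of 122 young and 2 of 70 old cells, and 1 old cell held 90.9% of the old UMIs. Flg was 9.06 and 43.6 CPM in young and old cells, and 96.9% of the old UMIs came from 1 cell. Of 10 members at 20 CPM or more 1 was called higher in the old control (Sprr1a) and 1 lower (S100a13), against 2.27% and 2.38% of all genes. The partners here gave 4 higher and 3 lower of 23. Cst6, the cystatin that restrains cornification proteases, was 3656 and 30072 CPM, and Tgm1, the main envelope transglutaminase, 34.4 and 104 CPM, while Krt1 was 742 and 88.6 CPM and Krt10 3962 and 1220 CPM.

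**Figure D3:**
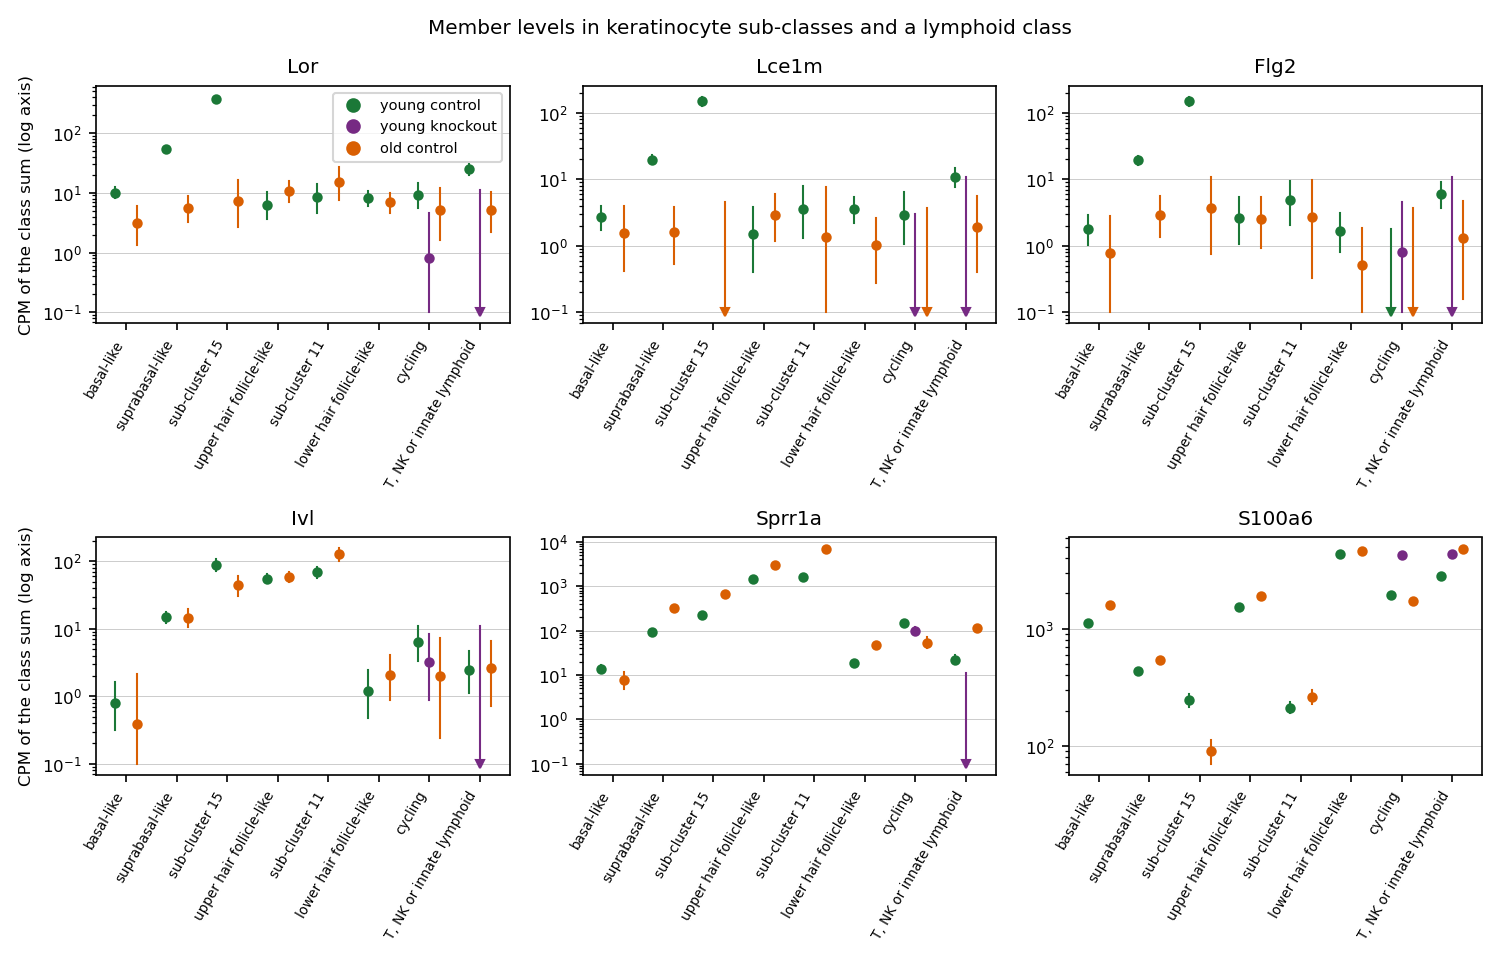
CPM (log axis) of Lor, Lce1m, Flg2, Ivl, Sprr1a and S100a6 in keratinocyte sub-classes, sub-clusters 15 and 11 and lymphoid-like cells, for groups of at least 40 cells, with 95% counting intervals. Triangles mark 0 UMIs. Lor, Lce1m and Flg2 peak in young cells of sub-cluster 15 (365, 149 and 148 CPM) and Sprr1a in old cells of sub-cluster 11 (6958 CPM).

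Across the young sub-classes Lor was highest in suprabasal-like cells, and Sprr1a and Ivl in upper hair follicle-like cells. Lor was 10.1 CPM in young basal-like cells, 54.8 CPM in suprabasal-like and 6.36 CPM in upper hair follicle-like cells. In the old control it was 3.09, 5.51 and 10.8 CPM, with overlapping intervals for suprabasal-like and both neighbours. Sprr1a was 13.8, 92.99 and 1446 CPM in the same 3 young sub-classes and 7.73, 317 and 3043 CPM in the old ones. Sprr1a was thus lowest in basal-like and highest in upper hair follicle-like cells in both controls. Ivl had the same order, at 0.782, 14.8 and 55.3 CPM in young and 0.386, 14.6 and 59.2 CPM in old cells, and its old and young values did not differ beyond counting error in any of the 3. In lower hair follicle-like cells, Sprr1a was 18.5 CPM in the young and 48.6 CPM in the old control. In cycling-like cells it was 150, 99.8 and 53.5 CPM in young, knockout and old libraries, and here the old control was lower (0.358 [0.262 to 0.481]), with 1 of 9 members higher (S100a4) and 1 lower (0.778% and 0.896% of all genes). With libraries clustered alone Sprr1a was lower in old basal-like cells too, at 39.99 and 11.4 CPM, the 1 of 9 members called lower and 0 higher (3.46% and 0.999%).

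In young suprabasal-like against basal-like cells, 2 of 9 members were higher and 1 lower, where 3.95% and 3.45% of all genes were. They were Lor (5.45-fold [4.34 to 6.91]), Sprr1a (6.77-fold [5.59 to 8.25]) and S100a6 (0.385 [0.370 to 0.399]). The Lor difference rested on sub-cluster 15, which held 362 of the 459 suprabasal-like Lor UMIs. In the other 577 suprabasal-like cells Lor was 13.1 CPM [10.6 to 15.9], beside 10.1 CPM [8.09 to 12.4] in basal-like cells, and Sprr1a was 75.8 CPM. In the old control 2 of 8 were higher and 3 lower (6.97% and 5.89% of all genes): Sprr1a was 41.0-fold higher [26.4 to 67.4] and S100a4 2.93-fold, with S100a6 at 0.339, S100a10 at 0.393 and S100a13 at 0.459. Upper hair follicle-like over basal-like cells gave Sprr1a and Ivl higher and S100a10 lower in the young control (6.67% and 7.34% of all genes). The old control added S100a4 to the higher ones (10.1% and 5.02%). Sprr1a was 105-fold and 394-fold higher there. The old suprabasal-like and upper hair follicle-like cells were shallow (medians 1883 and 2929 UMIs, against 9504 and 7070 in the young control). Sub-clusters 3 and 5, which also scored for T cell or mast cell markers, held 335 and 291 old keratinocyte-like cells. How many of these were in the suprabasal-like or upper hair follicle-like sub-class is not given here. All sub-clusters scoring for another class, among them sub-cluster 6 with fibroblast markers (291 old cells), were then left out of the whole class. This choice, made after seeing the data, gave an old over young Sprr1a ratio of 3.25.

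Old over young suprabasal-like cells had 2 of 10 members higher (Sprr1a, 3.41-fold [3.099 to 3.75], and S100a4, 2.46-fold [2.10 to 2.89]) and 1 lower (Lor, 0.101 [0.0581 to 0.163]), where 1.4% and 1.49% of all genes were. Lor reached the mean of 20 CPM there through the young cells alone, so nothing is read from its call. Lor in lymphoid-like cells was 24.7 CPM in the young and 5.18 CPM [2.24 to 10.2] in the old control. The young suprabasal-like value (54.8 CPM [49.9 to 60.04]) was above its lymphoid-like level and the old one (5.51 CPM [3.21 to 8.82]) overlapped it. Without the cells of sub-cluster 15 Lor was 13.1 CPM in young and 4.84 CPM [2.42 to 8.67] in old suprabasal-like cells, the young value then below its lymphoid-like level, and Sprr1a was 75.8 and 188.0 CPM. In basal-like cells 0 of 8 members were called in either direction (1.3% and 2.22%). In lower hair follicle-like cells Sprr1a was the 1 of 10 called, 2.63-fold higher [2.07 to 3.36] (0.708% higher and 2.8% lower). These cells lay in different sub-clusters, with 168 young and 1 old cell in sub-cluster 12 and 13 young and 303 old cells in sub-cluster 4. In upper hair follicle-like cells 2 of 10 were higher and 0 lower (2.71% and 0.717%): Sprr1a (2.11-fold) and S100a4 (61.7 to 272 CPM, 4.41-fold). S100a4 UMIs were, however, in fewer old than young cells of sub-clusters 1 (12.7% and 27.8%), 11 (11.4% and 26.2%) and 15 (13.3% and 26.9%). Sub-cluster 5, which also scored for mast cell markers, held 291 old and 10 young cells, with S100a4 in 44.0% and 50%. The part of such mixed sub-clusters in the S100a4 ratios was not tested.

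Over all keratinocyte-like cells, old against young, Sprr1a was the 1 of 9 members called higher and 0 were called lower, where 0.745% and 0.815% of all genes were. It was 171 CPM in the young and 572 CPM in the old control, 3.35-fold [3.24 to 3.47], and 259 CPM in the knockout. With each library clustered alone the ratio was 3.099, again the 1 of 9 called (1.22% higher and 0.980% lower). It was 5.28 with every cell thinned to 1500 UMIs and 2.09 when old cells were weighted so that each cluster had its young share. The whole kept library gave 85.6 and 293 CPM (3.42-fold [3.32 to 3.52]), the 1 member of 9 called (0.767% higher and 2.53% lower among all genes), while 0 of 9 were called in the whole knockout library (5.03% and 6.35%). S100a6 was 1568 and 2205 CPM (1.41-fold), and the other 7 members ran from 0.908-fold (S100a16) to 1.30-fold (S100a1). The median log2 ratio of the 9 was 0.16, and of all genes -0.12.

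Without the filter on level, 5 of 42 members were higher in the old control (2.23% of all genes) and 3 lower (1.76%). The lower ones were Lor (20.6 to 5.81 CPM, 0.283 [0.224 to 0.353]), Lce1m (7.27 to 1.44 CPM, 0.198 [0.121 to 0.306]) and Flg2 (6.38 to 1.31 CPM, 0.205 [0.122 to 0.324]), where young lymphoid-like cells held 24.7, 10.9 and 5.98 CPM of the 3. The higher ones beside Sprr1a were Flg, Sprr2d, Sprr2e and Sprr2f, on 40, 13, 6 and 6 old UMIs, so their values rest on few molecules.

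In the knockout, S100a6 was the 1 of 9 members called higher in keratinocyte-like cells and 0 were called lower, where 2.63% and 5.32% of all genes were. S100a6, which encodes calcyclin, was 1568, 4314 and 2205 CPM in young, knockout and old libraries, a knockout over young ratio of 2.75 [2.70 to 2.81]. With libraries clustered alone, which gave 924 knockout cells, it was 2.26 [2.22 to 2.30] (4.8% and 5.08% of all genes). It was higher in cycling-like cells (1932 and 4260 CPM, 2.20-fold [2.12 to 2.30]), the 1 sub-class with enough knockout cells, where 1 of 9 members was called higher and 0 lower (1.54% and 4.23%). Sub-cluster 17, made of 39 knockout cells alone, scored 1.38 for cycling and 1.34 for fibroblast markers. How many of them were cycling-like is not given here, and their part in the cycling-like value was not tested. With sub-clusters scoring for another class left out of the whole class, a choice made after seeing the data, the S100a6 ratio was 2.73. In lower hair follicle-like cells S100a6 was 4346 CPM in the young control and 7662 CPM over 35 knockout cells, and in the 8 suprabasal-like knockout cells it was 352 CPM against 433 CPM. S100a14, an S100 gene of epithelia, was 438 and 780 CPM (1.78-fold) and Sprr1a 171 and 259 CPM (1.52-fold [1.40 to 1.65]), short of the rule. The median log2 ratio of the 9 members was 0.43 and of all genes -0.11. TMM and median-of-ratios factors would raise every knockout over young log2 ratio by 0.12 and 0.15, and every old over young one by 0.08 and 0.11.

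Late genes could not be followed in the knockout as in the controls. Its keratinocyte-like class held 8 suprabasal-like cells, and clustered alone it gave 0 basal-like and 0 suprabasal-like cells but 344 upper hair follicle-like ones. Lor was 0.764 CPM in its keratinocyte-like cells, Lce1m 0 and Flg2 0.382, and whole-library Lor was 0.865 CPM against 15.5 CPM in the young control. Fewer upper cells and less RNA per cell cannot be told apart here. Without the filter on level 5 of 39 members were higher (2.71% of all genes) and 4 lower (3.87%). The lower ones were Lor, Flg2, Lce1m and Sprr2a3, and the higher ones S100a6, S100a8 (1.04 to 10.7 CPM), S100a9 (0.859 to 8.40 CPM), Sprr1b (2.76 to 12.2 CPM, 4.43-fold [2.86 to 6.69]) and Sprr2k (0 and 4 UMIs). Of the 32 knockout Sprr1b UMIs, 13 came from 1 cell of sub-cluster 11 and 11 from 1 cell of sub-cluster 15. Sprr1b, the close relative of Sprr1a, was 18.8 CPM in the 924 knockout cells clustered alone, on 99 UMIs. In upper hair follicle-like cells of libraries clustered alone, Sprr1a was 1183, 754 and 4673 CPM and Ivl 48.6, 36.1 and 90.6 CPM, lowest in the knockout and highest in the old control for both. There 4 of 10 members were higher in the knockout (S100a1, S100a4, S100a6 and S100a13) and 0 lower (7.86% and 6.11%), with S100a6 at 1173 and 3413 CPM. Of the 344 knockout cells, 274 lay in a cluster led by Cytl1, Selp, Vcam1 and Csf3. Its second score was vascular endothelial (0.87, after 1.58 for upper hair follicle). The part of this mixture in the upper hair follicle-like values was not tested. In lower hair follicle-like cells clustered alone 1 of 9 was higher (Sprr1a, 7.39 to 24.2 CPM) and 1 lower (S100a4, 2252 to 500.1 CPM), against 4.93% and 9.9%. The 222 knockout cells were 1 cluster led by Krt24, Ptgds and Krt6a, whose second score was melanocyte (0.95, after 1.86 for lower hair follicle). The 196 young cells were led by Wfdc3, Postn and Ctgf. Median UMIs were 5908 in the young and 1662 in the knockout cells, and the part of these differences was not tested.

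**Figure D4:**
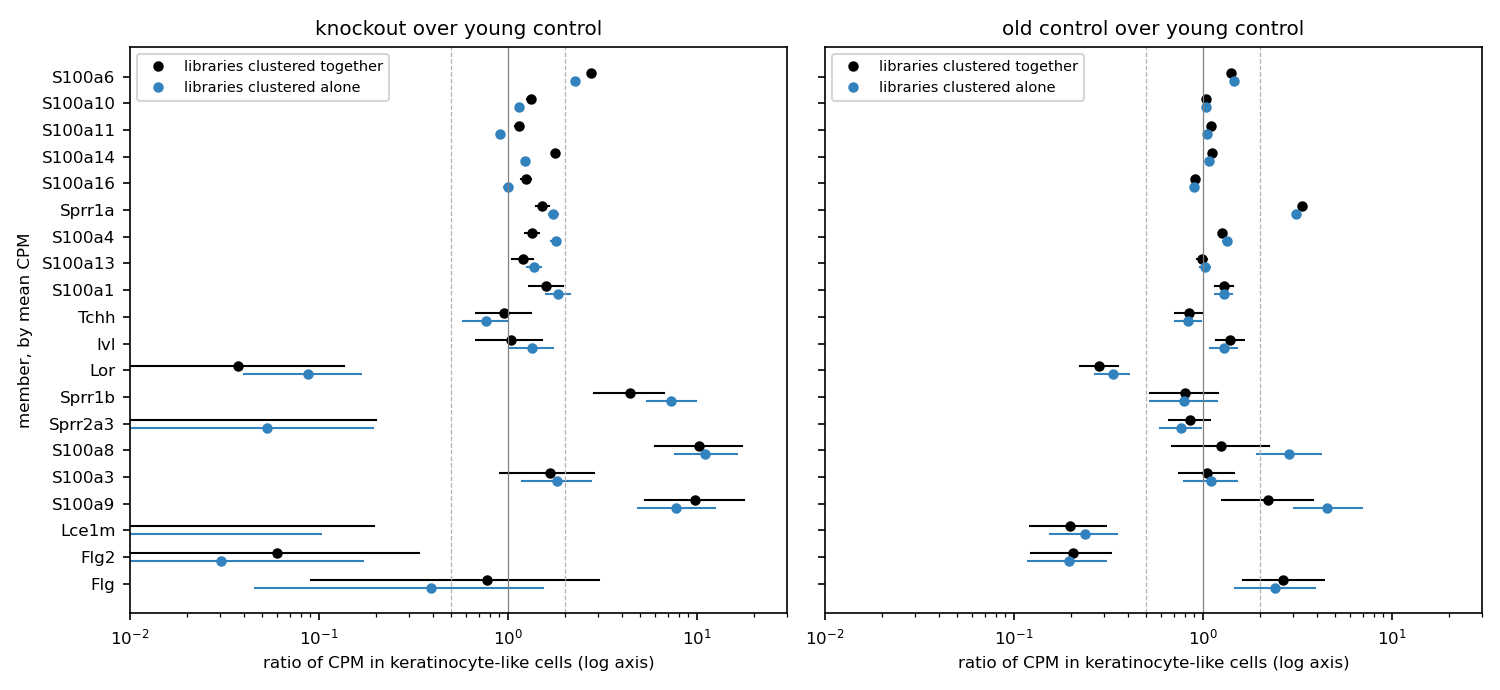
Ratio to the young control (log axis) of the 20 members with the highest mean in keratinocyte-like cells, with 95% counting intervals; black points are libraries clustered together and blue ones each library clustered alone. S100a6 in the knockout (2.75) and Sprr1a in the old control (3.35) pass the rule, and Lor, Lce1m and Flg2 lie below 1 in both comparisons.

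The partners and regulators of cornification were counted in the same cells. In the knockout 2 of 16 partners at 20 CPM or more were higher and 1 lower. Cst6 was 447 and 2483 CPM (5.56-fold [5.40 to 5.73]), Klk7 25.5 and 55.8 CPM, and Dsg1a, a desmosomal cadherin, 357 and 170 CPM. Of 23 regulators 0 were higher and 6 lower. Satb1, a chromatin organiser, was 71.9 and 15.3 CPM (0.212 [0.151 to 0.290]), Gata3 507 and 161 CPM (0.317 [0.287 to 0.350]), and Hes1, a Notch target, 215 and 69.9 CPM. Zfp750 (144 and 62.2 CPM), Rora (273 and 131 CPM) and Ovol1 (250 and 124 CPM) were the others. With libraries clustered alone, 1 partner was higher (Cst6) and 3 lower (Dsg1a, Ppl and Pkp1), and 6 regulators were lower, with Trp63 in place of Hes1. In the old control Cst6 was higher (447 to 2330 CPM, 5.22-fold) and Gata3 (0.462) and Satb1 (0.476) lower, with no other call among 16 partners and 23 regulators. None of the 8 other genes of the complex reached 20 CPM in keratinocyte-like cells. The mouse keratinocyte-like cells also differed in follicle markers, Krt79 at 436, 1287 and 824 CPM and Krt17 at 741, 2134 and 1799 CPM, whose part in these ratios was not tested.

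The class in which an S100a gene was highest differed between genes and, for several, between libraries. In the young control S100a6 was highest in dermal papilla or sheath-like cells (4417 CPM), against 1568 CPM in keratinocyte-like and 889 CPM in sebocyte-like cells. In the knockout keratinocyte-like cells led for S100a6 (4314 CPM, beside 4301 CPM in lymphoid-like cells), and in the old control lymphoid-like cells did (4748 CPM). S100a4, a marker of motile and mesenchymal cells, was highest in lymphoid-like cells (2080, 2761 and 3544 CPM in young, knockout and old) and lowest in young sebocyte-like cells (33.2 CPM). S100a14 led in keratinocyte-like cells in all 3 libraries (438, 780 and 489 CPM), followed by sebocyte-like cells (413, 399 and 476 CPM). S100a16 led in sebocyte-like cells (622, 459 and 588 CPM). S100a13 led in vascular endothelial-like cells of the young (334 CPM) and old (330 CPM) controls and was 283 CPM in lymphoid-like and 269 CPM in vascular cells of the knockout. S100a1 was 105, 95.3 and 102 CPM in sebocyte-like cells, beside 92.9 and 106 CPM in melanocyte-like cells of the young and old controls. S100a10, which binds annexin A2, was highest in dendritic or Langerhans-like cells of the young control (1816 CPM) and in lymphoid-like cells of the knockout (1221 CPM) and old control (1637 CPM). S100a11 was 1311 and 1379 CPM in dendritic or Langerhans-like cells of the controls, above keratinocyte-like cells (777 and 854 CPM). S100a8 and S100a9, the calprotectin pair of neutrophils and inflamed epidermis, were 47.9 and 52.2 CPM in young dendritic or Langerhans-like cells and under 3 CPM in keratinocyte-like cells of both controls.

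**Figure D5:**
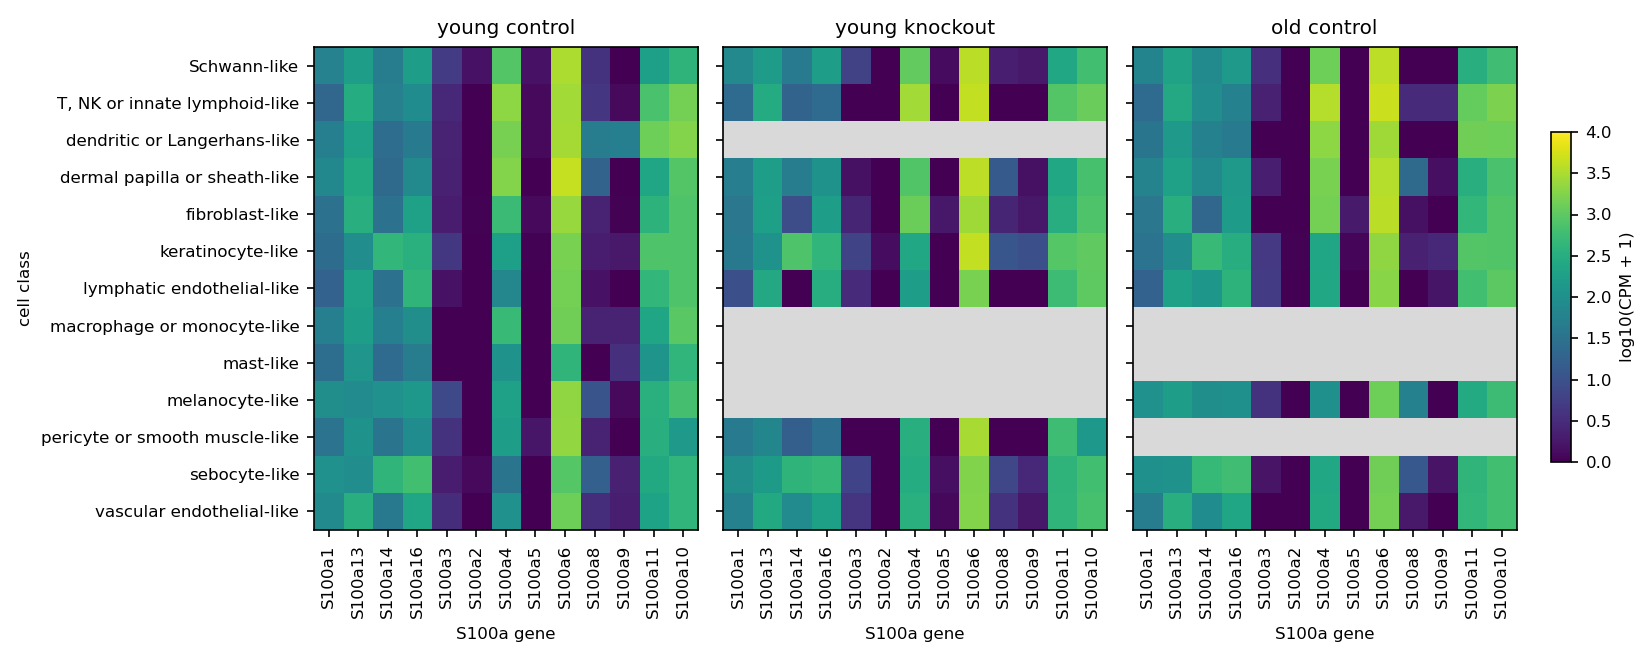
Heat maps of log10(CPM + 1) for the 13 S100a genes in skin classes with at least 50 cells, 1 panel per library, grey where fewer. S100a6 is bright in every class shown, S100a4 brightest in lymphoid-like cells (2080, 2761 and 3544 CPM) and S100a14 in keratinocyte-like cells (438, 780 and 489 CPM).

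Within keratinocytes, lower hair follicle-like cells had S100a4, S100a6 and S100a1 higher and S100a13 and S100a14 lower than basal-like cells. S100a4 was 786 CPM in young lower hair follicle-like cells and 38.4 CPM in basal-like cells (20.4-fold [18.3 to 22.9]), and 560 and 33.2 CPM in the old control. S100a6 was 4346 and 1127 CPM there in the young control and 4626 and 1606 CPM in the old. S100a1 was 54.0 and 20.8 CPM in the young control, while S100a14 (184 and 466 CPM) and S100a13 (43.9 and 128 CPM) were lower. These calls, 3 higher and 2 lower of 8 members (10.6% and 6.53% of all genes), were all made in the old control too, which gave 4 higher and 3 lower of 9 (9.16% and 7.04%), with Sprr1a and S100a11 beside them. S100a3, a hair cuticle gene, was 12.5 CPM in young lower hair follicle-like and 0.894 CPM in basal-like cells. In sub-cluster 12, led by Myoc and Cd34 and made of 168 young cells, S100a6 reached 8372 CPM and S100a4 2640 CPM.

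Among other classes with enough cells, S100a4 was the member called most often. Against the young control, it was higher in the knockout in fibroblast-like (535 to 1259 CPM, 2.35-fold [2.23 to 2.48]), sebocyte-like (33.2 to 294 CPM, 8.87-fold [7.36 to 10.8]) and vascular endothelial-like cells (106 to 339 CPM, 3.21-fold [2.83 to 3.66]). It was lower in dermal papilla or sheath-like cells (1788 to 832 CPM, 0.465 [0.446 to 0.485]). In 3 of these classes the libraries filled different clusters: sebocyte-like cells lay in clusters 6 and 33 in the knockout (1208 and 219 cells) and in cluster 12 in the young control (195 cells), vascular cells mostly in cluster 2 (1793) and cluster 15 (569), and dermal papilla or sheath-like cells in cluster 8 (1139) and cluster 3 (211). The free RNA estimated in these classes was 55.3%, 71.3% and 70.5% in the knockout and 9.77%, 28.2% and 27.5% in the young control, in the order sebocyte-like, vascular and dermal papilla or sheath-like. With free RNA subtracted, the S100a calls over all 5 classes compared went from 5 higher and 1 lower to 3 higher and 7 lower. The share of all genes called after subtraction is not given here. In the old control S100a4 was higher in fibroblast-like (1477 CPM, 2.76-fold [2.65 to 2.88]), sebocyte-like (249 CPM, 7.51-fold [6.20 to 9.17]), vascular endothelial-like (271 CPM, 2.57-fold [2.18 to 3.03]) and lymphatic endothelial-like cells (71.0 to 249 CPM, 3.51-fold [2.98 to 4.14]). In free RNA S100a4 was 316, 569 and 800 CPM, lowest in the young control too. The background shares were 5.6% higher and 4.03% lower in knockout fibroblast-like cells, where 1 of 7 members was called, and 12.5% and 6.67% in knockout sebocyte-like cells, where 1 was higher and 1 lower of 9. They were 6.14% and 9.59% in knockout vascular cells (3 higher of 9) and for dermal papilla or sheath-like cells of the knockout 5.51% and 4.82% (1 higher and 1 lower of 9). The old control gave 1.74% and 2.19% in fibroblast-like cells (1 higher of 7), 6.33% and 1.28% in sebocyte-like cells (1 higher of 9), 4.32% and 4.96% in vascular cells (4 higher of 9) and 2.34% and 2.79% in lymphatic cells (3 higher of 8). In Schwann-like cells 0 of 8 members were called in the knockout (4.49% and 6.77%) or in the old control (1.05% and 1.55%).

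S100a14 was higher in vascular endothelial-like cells of the knockout (39.99 to 84.5 CPM) and old control (85.9 CPM), and in dermal papilla or sheath-like cells of both (23.2 to 47.0 and 77.2 CPM). Krt14 in dermal papilla or sheath-like cells was 324, 341 and 784 CPM, close to the young level in the knockout and higher in the old control, and its part in the old value was not tested. Sprr1a was called in several classes that are not epidermal. In old lymphoid-like cells it was 22.3 to 112 CPM, the 1 of 9 called higher (3.37% and 4.09%), and in old dermal papilla or sheath-like cells 5.94 to 46.5 CPM, 1 of 2 higher members of 9 (2.86% and 1.92%). It was also called in old dendritic or Langerhans-like (8.46 to 53.1 CPM, 1.67% and 2.21%), lymphatic (13.3 to 138 CPM) and vascular endothelial-like cells (15.2 to 57.5 CPM). S100a8 was the 1 of 10 called in old melanocyte-like cells (9.83 to 56.0 CPM, 1.62% higher and 2.72% lower). The old free RNA held Sprr1a at 258 CPM and the young at 104 CPM. S100a8 in it was 28.0 CPM in the old and 90.2 CPM in the young control. Sprr1a was lower in knockout sebocyte-like cells (97.4 to 10.8 CPM), beside 11.6 CPM in the barcodes of that library taken as free RNA. In knockout vascular endothelial-like cells it was 15.2 to 177 CPM. Of those 1883 cells, 182 were placed with keratinocyte-like cells at a finer resolution and held Sprr1a at 1355 CPM with Krt79 at 2205 CPM, and the other 1701 cells held it at 14.4 CPM.

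Sprr2a3, whose 3' end it shares with Sprr2a1 and Sprr2a2, was 75.8 CPM [51.9 to 107] in sub-cluster 16, made of 51 young cells and led by the interferon-response genes Iigp1, Cxcl10 and Gbp2b. Tchh, trichohyalin of the inner root sheath, was 16.0, 15.3 and 13.4 CPM in keratinocyte-like cells and highest in sub-cluster 14, led by Krt19, Krt18 and Krt8, at 49.9 CPM in the young and 71.3 CPM in the old control with overlapping intervals. Hrnr was highest in young cells of sub-cluster 15, at 22.2 CPM [13.9 to 33.5], with 63.6% of its UMIs in 1 cell, and the 3 kept young cells with at least 5 Hrnr UMIs all had 5 of Flg2 and of Ivl.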

How the data were processed

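The deposited values are UMI counts for each gene in each barcode, not normalized, which the authors made with Cell Ranger 3.1.0 per the submitters' processing notes. Those notes also name Seurat 3.1.5 and the build mm10. The labels do not say how barcodes were selected before deposit. The analysis kept barcodes with at least 500 genes, 1000 UMIs and at most 15% mitochondrial UMIs. Scrublet's automatic threshold marked 2.815%, 0% and 0.00828% of barcodes in the young control, the knockout and the old control and had not worked in the latter pair, so in every library the top-scoring 8% were left out. Counts were scaled to 10000 per cell and reduced to 2000 variable genes and 30 components, without the 58 members and the 8 other genes of the complex. Cells of all libraries were clustered together on 20 neighbours with Leiden at resolution 1 (scanpy 1.11.5, leidenalg 0.10.2, igraph 0.11.9).

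Classes were named from fixed markers: at least 3 had to stand out, with a mean log2 score of at least 1 and a margin of 0.5 over the next class. The limits were chosen once tables of the clusters had been seen, and clusters that missed them stayed out of every class. The members, lists and rules were chosen with earlier results of these data known. UMIs were summed per library and class and given as CPM with exact Poisson intervals, ratios with exact binomial intervals and shares with Clopper-Pearson intervals, all at 95% and for counting error only. Against 0 UMIs a floor of 3 counts in the class sum was used. Values in each library were planned for the 20 members with the highest mean in keratinocyte-like cells, each member past the size rule there, the highest of each sub-family, and S100a members in their leading class. Of the partners and regulators past the rule at most 6 per direction were named. Sub-clusters 11, 12, 14, 15 and 16 and the genes named for them were chosen after their values were seen. The size rule was tried on simulated Poisson counts with known folds. These held no spread between cells or animals, so they bear on counting error only and not on the calls themselves. TMM and median-of-ratios factors came from edgeR 4.0.16. Alternatives changed the filter, doublets, clustering, scaling, depth, free RNA, cell weights and the level filter.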

Additional observations from a re-analysis of the deposited data

How the results depend on the processing

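No paired analysis was possible because each group was 1 library and the labels carry no replicate numbers, and for the same reason no library could be left out. The S100a6 ratio in the knockout (2.08 to 3.06) and the Sprr1a ratio in the old control (2.09 to 5.28) kept their direction and stayed past 2-fold in all 15 alternatives each. Removing the level filter, counted among the 15, cannot change a ratio. Counts of members called moved more. In knockout keratinocyte-like cells, 1 member was higher and 0 lower. It became 2 higher with the stricter filter, with doublets kept, at resolution 2, with cells thinned to 1500 UMIs and without cycling clusters, 3 higher and 1 lower by the mean of per-cell CPM, and 5 higher and 4 lower with no filter on mean CPM. In the old control, 1 higher and 0 lower became 1 lower by the mean of per-cell CPM, and 5 higher and 3 lower with no filter. Suprabasal-like over basal-like cells without the filter gave 7 higher and 3 lower in the young control and 6 higher in the old control, and subtracting free RNA left 1 higher in the old control. For S100a genes in other classes, the knockout's 5 higher and 1 lower (5 classes) became 2 lower with TMM factors, 3 higher and 7 lower with free RNA subtracted, and 3 lower with no filter. The old control's 9 higher and 0 lower (9 classes) became 5 higher and 4 lower with free RNA subtracted, and 2 lower with no filter. Apart from the filter, whose removal lets more genes in, the cause was not tested. Among these alternatives, shares of all genes are given above only for the unfiltered keratinocyte-like counts. The other counts have no background beside them, so nothing is read from their size. Few cells limit the late genes in the knockout: 0 Lor UMIs in its 3 cells of sub-cluster 15 allow up to 34.2 CPM (95% interval, counting error only).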
